A study of Mus musculus with 6 samples.

Results

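Fam169b, Gm8369 and BE692007 are 3 of the 32285 gene features counted in this series, and they were chosen by their unique molecular identifier (UMI) counts in normal mouse kidney as strongly lower in double negative (DN) T cells than in both CD4+ and CD8+ T cells. All 3 were among the 21677 features that passed the filter on rarely detected features. The control libraries therefore chose these genes, and their control levels are given here as a description. Single cell RNA sequencing was performed on T cells sorted from kidneys of male wild-type C57BL/6J mice aged 7 to 8 weeks, either normal control mice or mice subjected to bilateral renal ischemia reperfusion (IR), produced by clamping the renal pedicles of both sides over 30 min. Cells positive for CD45 and the αβ T cell receptor were sorted into CD4+, CD8+ and DN (CD4-CD8-) fractions, giving 6 libraries with 1 library for each subset and condition. Each group was 1 library, so the differences have no replicate check and no test between groups was run. Levels are UMIs of a gene summed over the cells of a library, per 1e+06 retained UMIs (CPM), and every interval is an exact 95% interval that covers counting error only.

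DN T cells carry an αβ T cell receptor without either coreceptor and are abundant in the kidney. T cells that circulate between lymphoid organs are known for the chemokine receptor Ccr7, which guides them into lymph nodes, and for the transcription factors Tcf7 and Lef1, whereas innate-like T cells are known for the transcription factor Zbtb16 and for natural killer receptors such as Klrb1c. Fam169b is a protein-coding gene of the little-studied FAM169 family. Gm8369 is annotated as protein-coding and BE692007 as a non-coding processed transcript, and both lie within the Ms4a cluster, a family of membrane-spanning proteins that includes the B cell antigen CD20 (Ms4a1) and the T cell protein Ms4a4b.

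After filtering, 3967 to 10063 cells per library were kept, with 4354753 to 60965581 retained UMIs per library. The median retained UMIs per cell ranged from 4997 to 6587 in the control libraries and from 949 to 1441 in the IR libraries, so a level in an IR library rests on fewer UMIs. The control count files carried Cell Ranger version 5.0.1 in their headers and the IR count files version 6.0.1, so that condition, software version and depth cannot be told apart. Within a condition, 134 to 189 barcodes of each library were also found in another library. The sort was checked on the coreceptor genes. Cd4 was at 210 CPM in control CD4 against 0.344 CPM in control DN, Cd8a at 863 CPM in control CD8 against 0.246 CPM in DN, and Cd8b1 at 1364 CPM in control CD8 against 1.33 CPM in DN. In IR DN, Cd4 was at 0.459 CPM, Cd8b1 at 2.30 CPM and Cd8a was not detected, against a floor of 0.689 CPM that 3 counts give in that library.

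On GRCm38 (GENCODE M21), Fam169b spans chr7:68273839-68363092 on the plus strand, with 7027 bp of exonic and 82227 bp of intronic sequence. Exons of 2 antisense genes, Gm16157 and Gm16158, overlap its exons on the minus strand. Gm8369 spans chr19:11485938-11512577 on the plus strand with 20654 bp of intronic sequence, and BE692007 spans chr19:11470166-11484578 on the minus strand with 9177 bp. These neighbours run head to head, with 1359 bp between their annotated ends. BE692007 shares exonic sequence with Ms4a6c on the opposite strand. The study's methods name default settings for the counting, under which these versions of Cell Ranger are known to count exonic reads by strand. Whether the deposited counts of Fam169b and BE692007 hold reads of their antisense partners was not tested.

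The promoter windows of the members are shown because the 3 genes share a level pattern and because the pair on chromosome 19 lies head to head. They run from 250 bases before to 50 bases after a transcript start and come from RefSeq (GRCm38.p6), in which all 3 members had an entry, 4 windows in all among 32851. Capitals mark matches on either strand to 5 short motifs known for TCF/LEF, RUNX, GATA and ETS factors and the TATA box, whose letters are given with the matches. The Fam169b windows are chr7:68273589-68273888 and chr7:68275734-68276033 on the plus strand, the Gm8369 window is chr19:11491788-11492087 on the plus strand, and the BE692007 window is chr19:11482530-11482829 on the minus strand. The Gm8369 and BE692007 windows lie 6100 and 1999 bp inside the outermost GENCODE starts.
Fam169b, upstream start: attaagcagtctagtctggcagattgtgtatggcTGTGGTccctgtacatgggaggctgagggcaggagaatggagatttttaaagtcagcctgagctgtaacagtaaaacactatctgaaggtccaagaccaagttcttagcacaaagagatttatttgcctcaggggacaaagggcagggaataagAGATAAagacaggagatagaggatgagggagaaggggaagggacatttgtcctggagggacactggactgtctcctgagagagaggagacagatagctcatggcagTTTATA
Fam169b, downstream start: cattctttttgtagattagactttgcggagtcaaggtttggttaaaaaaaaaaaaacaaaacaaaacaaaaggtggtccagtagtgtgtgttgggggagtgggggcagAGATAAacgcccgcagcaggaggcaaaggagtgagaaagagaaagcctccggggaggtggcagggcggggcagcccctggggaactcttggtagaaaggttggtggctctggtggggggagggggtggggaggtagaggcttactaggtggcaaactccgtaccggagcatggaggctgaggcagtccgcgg
Gm8369: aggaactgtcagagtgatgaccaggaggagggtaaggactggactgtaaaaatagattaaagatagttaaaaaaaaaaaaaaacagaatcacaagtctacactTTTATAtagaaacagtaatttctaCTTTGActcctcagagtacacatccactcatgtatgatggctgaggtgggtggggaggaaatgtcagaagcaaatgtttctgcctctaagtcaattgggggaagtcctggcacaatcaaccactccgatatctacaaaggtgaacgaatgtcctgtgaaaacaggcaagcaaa
BE692007: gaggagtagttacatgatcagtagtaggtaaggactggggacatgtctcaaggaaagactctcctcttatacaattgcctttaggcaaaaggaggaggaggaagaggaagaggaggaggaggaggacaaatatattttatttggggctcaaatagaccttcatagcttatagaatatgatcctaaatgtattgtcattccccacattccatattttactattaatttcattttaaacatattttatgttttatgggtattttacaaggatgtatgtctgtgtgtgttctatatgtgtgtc

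No motif was held by windows of all 3 members. The GATA motif AGATAA occurred in both Fam169b windows, 62 and 142 bases before the start, and in 11.2% of all windows in the table. The RUNX motif TGTGGT occurred 216 bases before the upstream Fam169b start and in 16.8% of all windows. The TCF/LEF core CTTTGA occurred 123 bases before the Gm8369 start and in 16.0% of all windows. The TATA box letters TATAAA on the minus strand occurred in the upstream Fam169b window and in the Gm8369 window, and in 13.6% of all windows. The ETS motif CCGGAA, held by 14.9% of all windows, was in none of the 4, and the BE692007 window held none of the 5 motifs. The windows were unlike in base composition, with 36.3% G+C and no CpG in BE692007, 40.3% G+C and 2 CpG in Gm8369, 47% G+C and no CpG in the upstream Fam169b window, and 55.0% G+C with 9 CpG in the downstream one, against medians of 52.7% and 7 over all windows. A match is a description of the letters and does not show a binding site.

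In normal kidney, the level of Fam169b was 104 CPM in CD4 (95% interval 101 to 107), 206 CPM in CD8 (201 to 210) and 5.95 CPM in DN (5.36 to 6.60). Gm8369 was at 151 CPM in CD4, 271 CPM in CD8 and 26.8 CPM in DN (25.5 to 28.1). BE692007 was at 111 CPM in CD4, 193 CPM in CD8 and 20.6 CPM in DN (19.4 to 21.7). All 3 genes ran in the order CD8, CD4, DN, and no 2 of the intervals of a gene overlapped. The DN level of Fam169b was 5.71% of the CD4 level and 2.90% of the CD8 level, that of Gm8369 17.7% and 9.90%, and that of BE692007 18.6% and 10.7%. "Nearly absent" thus describes Fam169b more closely than the other members, although its DN level was also measurable, on 363 UMIs. A call required at least 10 CPM in the higher library and at least a 2-fold difference. By this rule 0.918% of the 9038 genes tested were lower in control DN than in both other subsets, and the 3 members were among them by construction. Ranked by the ratio of DN to the closer subset among 3952 genes at 50 CPM or more in CD4 and CD8, the member nearest the edge was BE692007 (log2 ratio -2.43). The genes just outside were Gm20275 at -2.07 and Slamf6, a SLAM family receptor, at -1.81.

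The IR libraries were not used in choosing the genes. Fam169b was at 212 CPM in IR CD4 (205 to 220), 305 CPM in CD8 (292 to 319) and 11.0 CPM in DN (8.13 to 14.6, 48 UMIs). Gm8369 was at 619 CPM in IR CD4, 856 CPM in CD8 and 68.2 CPM in DN (60.7 to 76.4, 297 UMIs). BE692007 was at 64.6 CPM in IR CD4, 104 CPM in CD8 and 8.50 CPM in DN (5.98 to 11.7, 37 UMIs). Each gene again ran in the order CD8, CD4, DN without overlap of the intervals. All 3 members were called lower in IR DN than in both other subsets, whereas 1.56% of the 9082 genes tested were.

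The log2 ratio of IR DN over IR CD4 was -4.27 for Fam169b (-4.71 to -3.86), -3.18 for Gm8369 (-3.35 to -3.02) and -2.93 for BE692007 (-3.44 to -2.45). Over IR CD8 the log2 ratios were -4.79, -3.65 and -3.61, in the same order. Among 3316 genes at 50 CPM or more in IR CD4 and CD8, the members ranked 4, 6 and 8 by the ratio to the closer subset. The other genes of the first 8 were Igfbp4, Dapl1, Ccr7, Ifngr2 and Actn1. The genes just outside the control threshold differed in IR. Slamf6 was again lower in IR DN, at rank 14, whereas Gm20275 was at 29.2 CPM in IR DN, 76.1 CPM in CD4 and 31.6 CPM in CD8, a log2 ratio of DN over CD8 of -0.12 (-0.45 to 0.21).

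**Figure D1:**
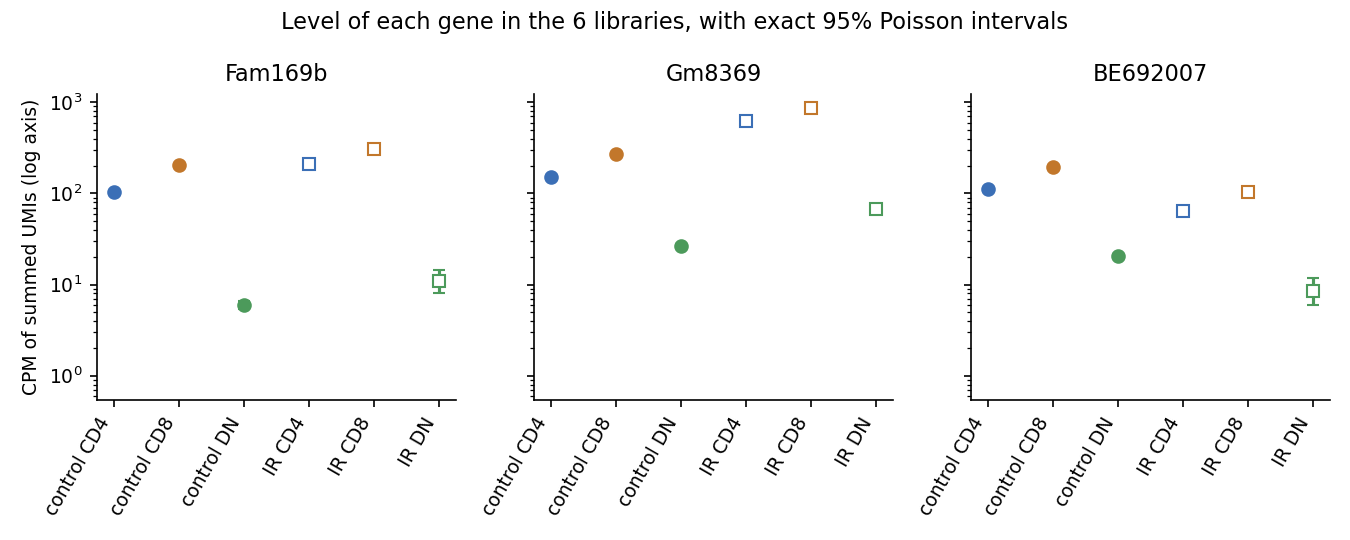
Level of Fam169b, Gm8369 and BE692007 (CPM, log axis) in the 3 control libraries (filled circles) and the 3 IR libraries (open squares), colored by subset, with exact 95% Poisson intervals, most of which are smaller than the symbols. In each panel both DN libraries lie below the CD4 and CD8 libraries of their condition, and Fam169b in DN is at 5.95 CPM in control and 11.0 CPM in IR.

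**Figure D2:**
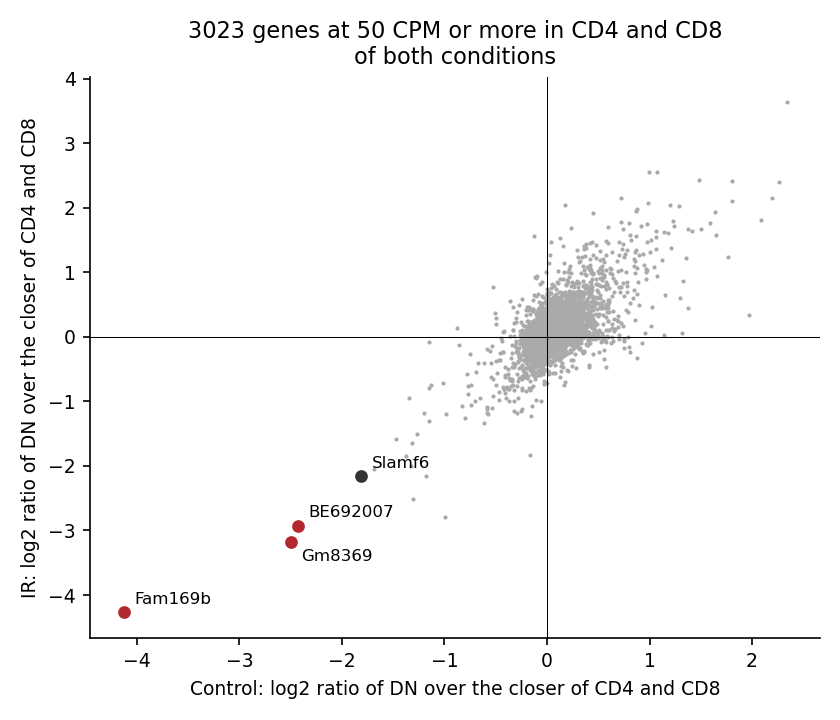
log2 ratio of DN over the closer of CD4 and CD8 in control (x axis) and in IR (y axis) for 3023 genes at 50 CPM or more in CD4 and CD8 of both conditions. The 3 members (red) and Slamf6 (black) are named, and Fam169b is at -4.13 in control and -4.27 in IR; the control axis chose the members.

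The order CD8, CD4, DN was also found in the share of cells that held the gene. Every cell was thinned to 500 retained UMIs, a depth that every kept cell reached, so that libraries of unlike depth could be compared. Fam169b was then detected in 5.09% of control CD4 cells, 8.79% of control CD8 cells and 0.225% of control DN cells, and in 9.74%, 13.6% and 0.580% of the IR cells. Gm8369 was detected in 6.78%, 11.7% and 1.33% of the control cells and in 22.9%, 32.7% and 3.73% of the IR cells. BE692007 was detected in 5.52%, 8.95% and 1.03% of the control cells and in 2.98%, 4.68% and 0.479% of the IR cells. Without thinning the DN shares were 2.82% and 1.03% for Fam169b, 11.6% and 6.00% for Gm8369, and 9.09% and 0.907% for BE692007, in control and IR. For comparison, the thinned share of Trac, which encodes the constant region of the α chain, was 29.7% to 36.1% in all 6 libraries.

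The DN cells that held a member were many cells with few UMIs. In control DN, Fam169b was found in 251 of 8889 cells, of which 185 held a single UMI and 25 held 3 or more, with at most 7 in a cell. Gm8369 was found in 1030 control DN cells with at most 23 UMIs in a cell, and BE692007 in 808 cells with at most 8. In IR DN, 41 of 3967 cells held Fam169b, 238 held Gm8369 and 36 held BE692007. Of the control DN cells with a Fam169b UMI, 2.39% (0.88% to 5.13%) also held a Cd4, Cd8a or Cd8b1 UMI, against 1.01% of those without. Leaving out every control DN cell with a coreceptor UMI left Fam169b at 5.87 CPM, Gm8369 at 26.5 CPM and BE692007 at 20.6 CPM, within the intervals above. None of the IR DN cells with a member UMI held a coreceptor UMI, with upper limits of 8.60% for Fam169b, 1.54% for Gm8369 and 9.74% for BE692007. Of the IR DN cells without the member only 11 did (0.28% to 0.29%), so the count of 0 decides little. The coreceptor genes themselves were far lower in relation to the sorted subsets, with Cd4 in control DN at 0.164% of its CD4 level and Cd8b1 at 0.0974% of its CD8 level.

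Barcodes that held no UMI of the T cell receptor constant or Cd3 genes were read apart. They passed the filter on features, so they may be cells and are no measure of free RNA alone. In control DN there were 24 such barcodes with a median of 1322 UMIs and no UMI of any member. The 3 counts that a count of 0 allows in their 27102 retained UMIs lie above the DN level of every member, so these barcodes set no background for it. In control CD4, 13 of 65 such barcodes held Fam169b, at 18 UMIs (202 CPM, against 104 CPM in the kept cells) and a median depth of 1240 UMIs per barcode. In IR DN, 174 such barcodes held 2 UMIs of Fam169b, 11 of Gm8369 and none of BE692007. Markers of other cell types were summed in every library. B cell markers were between 1.90 and 24.7 CPM, myeloid markers between 2.00 and 29.3 CPM, erythroid markers between 1.16 and 27.4 CPM and tubule markers between 1.16 and 2.07 CPM. Of the endothelial markers Pecam1, which T cells also express, reached 128 CPM in control CD4 and 45.1 CPM in control DN, and Kdr, Emcn and Cdh5 were at 1.38 CPM or less in every library. The sum of the γδ T cell markers Trdc, Trdv4 and Sox13 was between 2.30 and 5.74 CPM, and it holds no γ chain gene. The B cell, myeloid and erythroid sums were higher in the IR than in the control library of each subset, and their part in the IR values was not tested. Natural killer markers summed to 230 CPM in control DN and 242 CPM in IR DN against 37.5 to 71.8 CPM elsewhere, of which Klrb1c made up 208 and 231 CPM. Eomes of that list went the other way, at 4.10 CPM in control DN against 59.9 CPM in CD8, and at 2.53 against 28.4 CPM in IR. The invariant NKT genes Zbtb16 and Trav11 summed to 205 CPM in control CD4, 262 CPM in DN and 2.07 CPM in CD8.

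CD8 exceeded CD4 in both conditions for every member, by less than 2-fold as processed here. The log2 ratio of CD8 over CD4 was 0.98 for Fam169b (0.93 to 1.03), 0.84 for Gm8369 and 0.80 for BE692007 in control, and 0.52, 0.47 and 0.68 in IR. That of Fam169b in control was at the edge, and it reached 2-fold without the barcodes that held B cell, myeloid or erythroid UMIs. In IR these ratios were smaller in size than those between DN and either subset.

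The effect of condition was examined next by setting each IR library against the control library of its subset. The rule did not use the IR levels, but each ratio has a control level that the rule did use as its denominator. Gm8369 was higher in IR in all 3 subsets, with log2 ratios of 2.03 in CD4 (1.99 to 2.08), 1.66 in CD8 (1.62 to 1.71) and 1.35 in DN (1.17 to 1.53). Fam169b was higher in IR CD4 by a log2 ratio of 1.03 (0.96 to 1.09), at the edge of the call (0.68 with mitochondrial, ribosomal and Malat1 UMIs kept in the totals and 0.97 with cells thinned to 500 UMIs), and was below 2-fold in CD8 (0.57) and DN (0.89, 0.42 to 1.33). BE692007 went the other way. It was lower in IR DN by a log2 ratio of -1.28 (-1.79 to -0.80) and was below 2-fold in CD4 (-0.77) and CD8 (-0.90), where it was past 2-fold, at -1.12 and -1.31, with mitochondrial, ribosomal and Malat1 UMIs kept in the totals. The head-to-head neighbours Gm8369 and BE692007 thus shared the low DN level and had opposite signs in each of the 3 comparisons of IR with control.

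By the same rule 7.63% of genes were higher in IR CD4, where 2 of the 3 members were called, 7.87% in IR CD8, where 1 was called, and 8.36% in IR DN, where 1 was called. In IR DN 11.4% of genes were lower, BE692007 among them. Over all genes the median log2 ratio was -0.27 in CD4, -0.38 in CD8 and -0.27 in DN, and it moved with intronic length. Centred on genes of like intronic length in 20 bins, the log2 ratios of Fam169b were 1.80, 1.27 and 1.49 in CD4, CD8 and DN, those of Gm8369 2.31, 2.07 and 1.60, and those of BE692007 -0.88, -0.75 and -1.26. All 9 signs were as before. Of the genes called in either direction, 33.3% were higher in CD4, 30.6% in CD8 and 42.4% in DN, and after centring 61.9%, 65.1% and 70.6%. With mitochondrial, ribosomal and Malat1 UMIs kept in the totals these shares were 10.8%, 9.39% and 25.5%, and the median of all genes shifted by a further -0.35, -0.41 and -0.17. The part of the software version, the intronic sequence and the depth in these ratios was not tested.

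**Figure D3:**
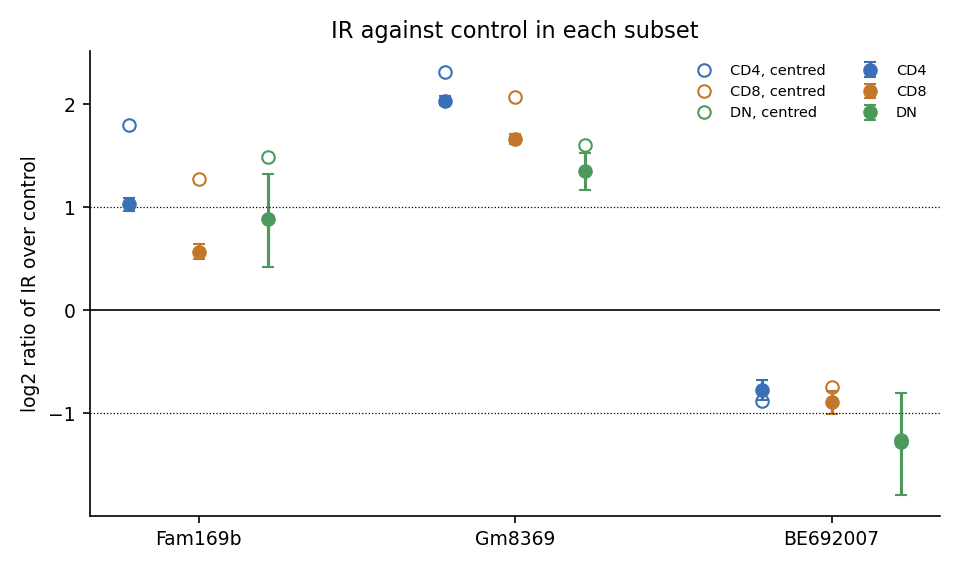
log2 ratio of IR over control for each member in CD4, CD8 and DN (filled points with 95% intervals), and the same ratio centred on genes of like intronic length (open points). Dotted lines mark 2-fold. Gm8369 is above 1 in all 3 subsets, Fam169b is above 0 and BE692007 is below 0, at -1.28 in DN.

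The level of Gm8369 was also higher in IR than in control among CD4 cells with and without a Ccr7 UMI. It was at 613 CPM in the 694 control CD4 cells with Ccr7 and at 1359 CPM in the 2020 such IR cells. In the cells without Ccr7 it was at 112 CPM in control and 442 CPM in IR. Fam169b was at 366 CPM in control and 410 CPM in IR in the cells with Ccr7, and at 82.2 and 165 CPM in those without. BE692007 was at 173 and 110 CPM with Ccr7, and at 105 and 53.7 CPM without. A cell without a UMI is not shown to lack the gene, and the IR cells were shallower.

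Genes beside the members were compared to see how far the low DN level reached along the chromosome. Around Fam169b, the overlapping antisense gene Gm16158 was at 22.6 CPM in control CD4, 32.7 CPM in CD8 and 1.15 CPM in DN. Gm16157, which overlaps the Fam169b start, was at 1.72, 4.48 and 0.213 CPM, under the minimum for a call. Pgpep1l, a protein-coding gene 9605 bp before Fam169b that does not overlap it, had 127 UMIs in control CD4, 211 in control CD8 and 1 in control DN, levels that were also under that minimum. On that 1 UMI, DN stood to CD4 at a log2 ratio of -7.26 (-12.57 to -4.75). In IR, Pgpep1l had 119 UMIs in CD4, 102 in CD8 and none in DN, so that at the floor of 3 counts the log2 ratio was at most -3.47 to CD4 and -4.51 to CD8. Igf1r, the insulin-like growth factor receptor further upstream, had log2 ratios of DN over CD4 of -1.36 in control and -1.45 in IR and was called lower in both. After Fam169b, Arrdc4, which lies 373902 bp away, was at 3.57, 7.36 and 2.03 CPM in control CD4, CD8 and DN, under the minimum for a call, and in IR it was at 10.9 CPM in CD8 and 2.99 CPM in DN, a log2 ratio of -1.87 that was called lower. The next gene, Mctp2, lies 3714737 bp away, and its control levels were 210 CPM in CD4, 231 CPM in CD8 and 249 CPM in DN. Lower DN levels were thus found before Fam169b and in the antisense genes that overlap it. Beyond its end the only lower call was that of Arrdc4, in IR against CD8 alone and on 13 UMIs in DN. Mctp2 was not called lower in DN.

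Around the pair on chromosome 19 the Ms4a genes had smaller differences between DN and the other subsets in control than the members. Ms4a4b, which lies 3110 bp from BE692007, was at 1256 CPM in control CD4, 1996 CPM in CD8 and 1230 CPM in DN. Ms4a6b, beyond Gm8369, was at 654, 821 and 437 CPM, and in IR it was called lower in DN, with log2 ratios of -1.27 to CD4 and -1.12 to CD8. Ms4a6c, whose exons overlap BE692007 on the other strand, was at 32.1, 29.0 and 41.0 CPM in control and 33.7, 32.3 and 34.4 CPM in IR, with DN the highest in control and no difference beyond counting error in IR. The antisense gene Gm19261 was low in DN like the pair, at 2.51, 7.84 and 0.558 CPM in control, also under the minimum. In IR it was at 25.5 CPM in CD8 and 1.15 CPM in DN, on 5 UMIs, a log2 ratio of -4.47 (-6.11 to -3.22) that was called lower. Of the 19 Ms4a genes, 5 reached 10 CPM in control CD4 or DN, and none of these was called in either direction between DN and CD4, with a median log2 ratio of -0.31 against 0.00 over all genes. Of all genes 1.38% were lower in control DN than in CD4 and 3.03% than in CD8, and 2.38% and 4.12% in IR. Against control CD8, 1 of 5 Ms4a genes was called lower, Ms4a4c, at 57.5 CPM in CD8 and 14.6 CPM in DN. In IR, 2 of 6 were lower than in CD4 and 2 of 5 than in CD8. The 1 that was higher than in CD4, as were 4.83% of all genes, was the B cell marker Ms4a1, at 16.5 CPM in DN and 3.98 CPM in CD4, which was at 0.459 CPM or less in control. It made up most of the B cell marker sum of 17.7 CPM in IR DN, and whether it came from T cells was not tested.

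**Figure D4:**
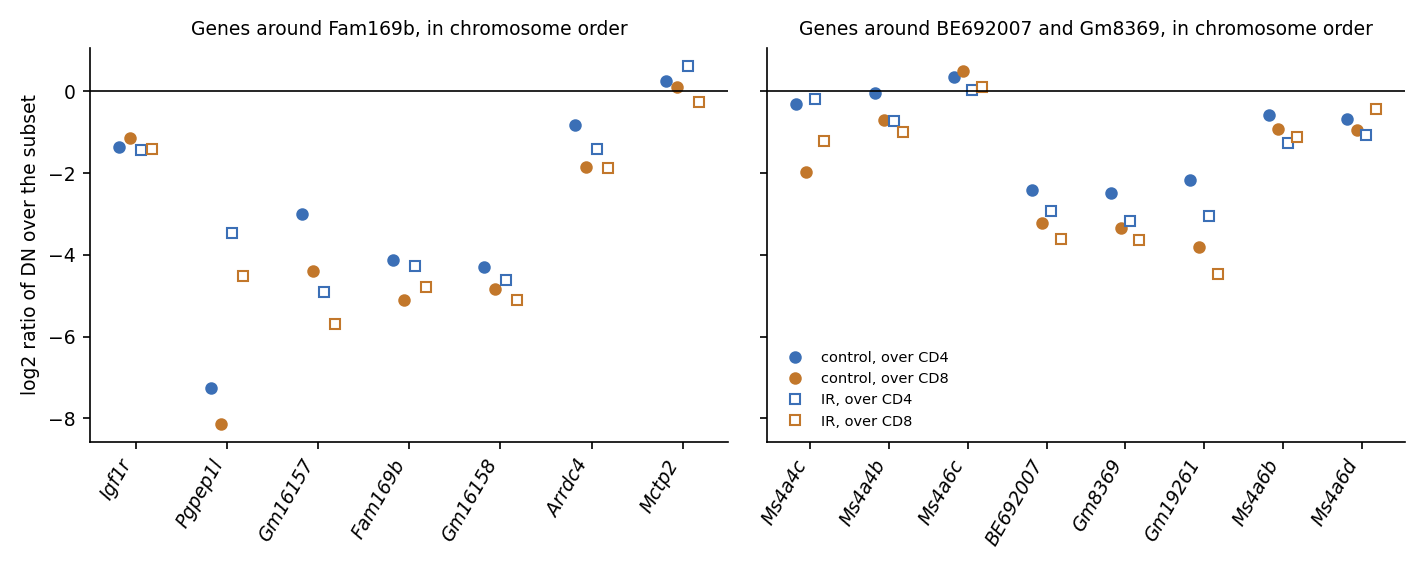
log2 ratio of DN over CD4 (blue) and over CD8 (orange) in control (filled circles) and IR (open squares) for the genes around each member, in chromosome order and not to scale. Values for Pgpep1l in IR use the floor of 3 counts for DN; Pgpep1l, Gm16157 and Gm16158 lie low beside Fam169b, whereas Ms4a4b, Ms4a6c and Ms4a6b lie nearer 0 than BE692007 and Gm8369.

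The only other FAM169 gene among the features, Fam169a, did not share the pattern. Its control levels were 0.730 CPM in CD4, 0.633 CPM in CD8 and 0.853 CPM in DN, below the 10 CPM minimum. In IR it was at 20.2, 56.4 and 73.0 CPM, highest in DN, so that the log2 ratio of IR over control was 4.79 in CD4 (4.29 to 5.32), 6.48 in CD8 and 6.42 in DN (5.99 to 6.87). The control levels rest on 37, 29 and 52 UMIs, and the part of the software version in this difference was not tested. The files list the same features in all 6 libraries, but whether the control and IR reads were counted against the same reference was not tested, so this ratio may not be one of expression. Fam169b in DN was at 5.95 and 11.0 CPM in the same libraries.

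Within the CD4 and CD8 libraries the members marked some cells more than others. Cells with and without a UMI of a member were compared, which describes the cells and is no test. In control CD4, 10 of the 13 genes of a naive and recirculation list were at least 2-fold higher in cells with Fam169b, with a median log2 ratio of 1.45 against 0.00 over all genes, of which 1.4% were. Genes are named here by the size of the ratio among those at 50 CPM or more in the higher set of cells, whereas the lists were counted at 10 CPM or more. The sialyltransferase St8sia6 (3.24), the antisense gene Gm16158 (3.17), Ccr7 (3.06), Dapl1 (3.02) and Igfbp4 (2.98) had the largest log2 ratios. With Gm8369, 9 of 13 were at least 2-fold higher (median 1.42, against 0.923% of all genes), and the largest ratios were those of Dapl1 (3.94), St8sia6 (3.57), Igfbp4 (3.50), Ccr7 (3.15) and the actin cross-linker Actn1 (2.91). With BE692007, 1 of 13 was (median 0.54, against 0.125% of all genes). The largest ratios at 50 CPM or more were those of its neighbour Gm8369 (1.18), Slamf6, Gpr183, Cmah and Iigp1.

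Natural killer receptors were on the low side. All 8 genes of that list that reached 10 CPM were at least 2-fold lower in control CD4 cells with Fam169b (median -2.51) and with BE692007 (median -1.42), as were 5 of 8 with Gm8369 (median -1.43). Of all genes 1.1%, 0.388% and 0.251% were lower with Fam169b, BE692007 and Gm8369. Among genes at 50 CPM or more, the inhibitory receptor gene Klrc1 (-3.00), Zbtb16 (-2.78), the γ chain gene Tcrg-C2 (-2.71), Klrb1c (-2.40) and the cytokine gene Il4 (-2.32) had the smallest log2 ratios with Fam169b. Klrc1, Klrb1c, Tcrg-C2, Sulf2 and Fgl2 did so with Gm8369, and Klrb1c, Klrc1, Klrk1, Klrd1 and Sulf2 with BE692007. Below that limit, Klre1 was at -3.06 and Klrc2 at -2.98 with Fam169b.

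The same lists were read in control CD8 cells. With Fam169b, 9 of 13 naive and recirculation genes were at least 2-fold higher (median 1.13, against 0.696% of all genes), and Auts2 (1.84), Ccr7 (1.69), Igfbp4 (1.58) and Nsg2 were among the 5 largest ratios at 50 CPM or more. The granzyme gene Gzma (-1.37), Cd74, Ccl3, Zeb2 and Ccl4 were lowest by the same limit. With Gm8369, 5 of 13 were (median 0.93, against 0.41%), with Dapl1, Ccr7, Auts2, Nsg2 and Cmah highest and Cd40lg, Il12rb2, Atp8a2, Fgl2 and Itga1 lowest at 50 CPM or more. With BE692007 none of the 13 was (median 0.17), nor was any gene (0%). At 50 CPM or more, Dapl1, Gm8369, Rasgef1b, Ctla4 and Slamf6 were highest and Cd74, Gzma, Il12rb2, Metrnl and Xcl1 lowest, and the ratios of these genes were within 2-fold. Of the natural killer receptors that reached 10 CPM, 4 of 9 were at least 2-fold lower with Fam169b, 4 of 8 with Gm8369 and 4 of 9 with BE692007, against 0.171%, 0.216% and 0.115% of all genes. In IR CD4, 6 of 13 genes of the list were at least 2-fold higher with Fam169b, 9 of 13 with Gm8369 and none with BE692007, against 0.881%, 1.46% and 0.416% of all genes. In IR CD8 none of the 13 was with any member, with medians of 0.53 for Fam169b, 0.66 for Gm8369 and 0.11 for BE692007, where 0.904%, 0.36% and 1.51% of all genes were.

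The levels of the members were then read in cells with a UMI of a state gene. In control CD4, Fam169b was at 17.2 CPM (15.4 to 19.2) in the 2948 cells with Zbtb16 and at 155 CPM in the 6253 cells without. Gm8369 was at 56.0 and 207 CPM, and BE692007 at 52.2 and 145 CPM. In IR CD4, Fam169b was at 33.1 CPM with Zbtb16 and 232 CPM without. With Cxcr6, a chemokine receptor of tissue-resident T cells, control CD4 cells had 61.7 CPM of Fam169b against 290 CPM without. Itgae, an integrin gene also on the list of tissue residency genes, went the other way. The 180 control CD4 cells with Itgae had 214 CPM of Fam169b against 102 CPM without. Gm8369 was at 118 and 152 CPM, and BE692007 at 126 and 110 CPM. Foxp3, the transcription factor of regulatory T cells, marked 342 control CD4 cells, in which Fam169b was at 318 CPM, Gm8369 at 197 CPM and BE692007 at 165 CPM, against 94.8, 149 and 108 CPM in the cells without. In IR CD4 only Fam169b was higher with Foxp3 beyond counting error, at 386 against 207 CPM. Gm8369 was lower, at 457 against 625 CPM, and BE692007 was at 65.0 and 64.6 CPM. The log2 ratio of cells with over cells without Zbtb16 was -3.17 for Fam169b, -1.89 for Gm8369 and -1.47 for BE692007 in control CD4.

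In the 32 control DN cells with Ccr7, Fam169b was at 97.6 CPM (63.8 to 143), on 26 UMIs, Gm8369 at 169 CPM and BE692007 at 56.3 CPM. In the DN cells without Ccr7 they were at 5.55, 26.2 and 20.4 CPM. Zbtb16 divided the DN cells far less than the CD4 cells. Fam169b was at 4.72 CPM with Zbtb16 and 8.00 CPM without, Gm8369 at 25.8 and 28.3 CPM, and BE692007 at 22.2 and 18.0 CPM.

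**Figure D5:**
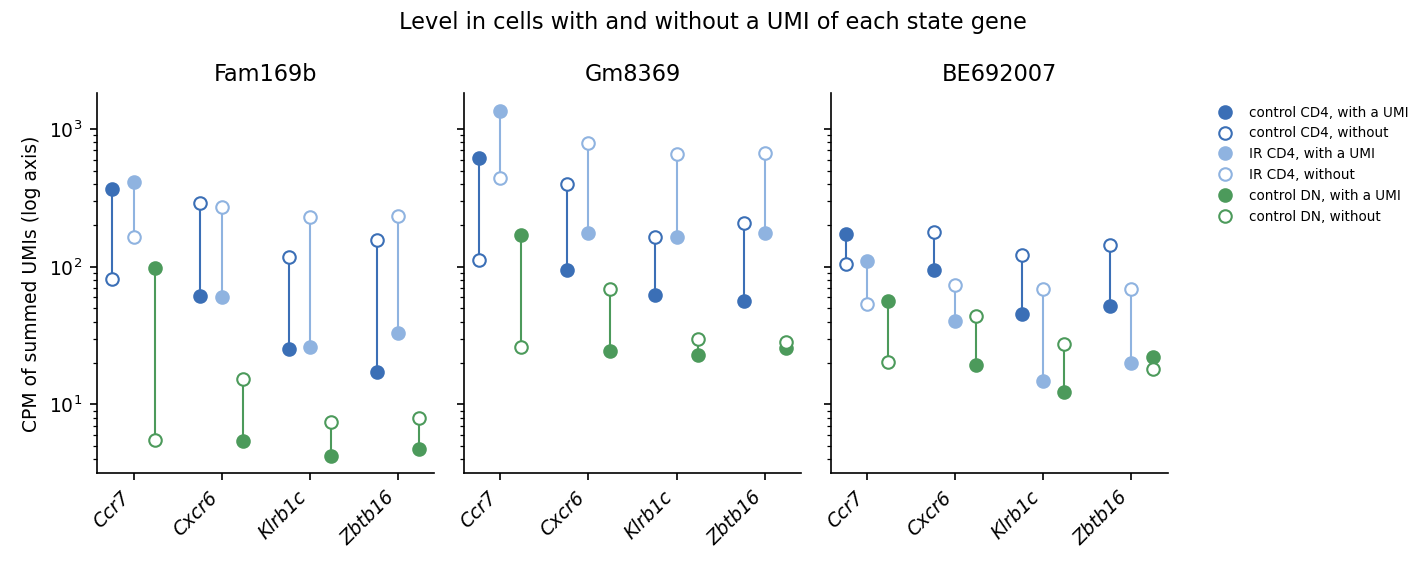
Level of each member (CPM, log axis) in cells with a UMI (filled) and without a UMI (open) of Ccr7, Cxcr6, Klrb1c or Zbtb16, in control CD4, IR CD4 and control DN. In CD4 cells the members are higher with Ccr7 and lower with Cxcr6, Klrb1c or Zbtb16, as for Fam169b at 17.2 CPM with Zbtb16 and 155 CPM without.

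DN and CD4 cells were also set side by side within the same gate. Among control cells with a Zbtb16 UMI, 5162 DN and 2948 CD4 cells, DN stood to CD4 at a log2 ratio of -1.87 for Fam169b (-2.14 to -1.60), -1.12 for Gm8369 (-1.24 to -0.99) and -1.24 for BE692007 (-1.37 to -1.10). Over all cells the ratios were -4.13, -2.50 and -2.43. In IR, where the gate held 435 DN and 885 CD4 cells, the ratios were -1.78 for Fam169b (-3.47 to -0.47), -0.93 for Gm8369 (-1.41 to -0.49) and -1.39 for BE692007 (-3.35 to 0.11), on 5, 48 and 4 UMIs in DN. The IR interval of BE692007 thus included 0, and the control ratios come from the libraries that chose the genes. Among control cells with a Klrb1c UMI, 3978 DN and 1075 CD4 cells, the ratios were -2.57, -1.45 and -1.87. In IR, with 759 DN and 772 CD4 cells, they were -0.99 for Fam169b (-2.07 to -0.01), below 2-fold, -2.54 for Gm8369 (-3.18 to -1.95) and -1.77 for BE692007 (-3.78 to -0.19), on 12, 26 and 4 UMIs in DN. Among those with a Cxcr6 UMI they were -3.50, -1.96 and -2.29 in control and -2.91, -2.28 and -2.21 in IR. With Fcer1g, a gene of the natural killer receptor list, they were -3.59, -1.58 and -2.60 in control. In IR they were -4.44, -2.56 and -2.99, on 4, 45 and 3 UMIs in DN. Against the 145 control CD8 cells with Klrb1c the ratios were -4.61, -3.10 and -3.43, and over all CD8 cells -5.11, -3.34 and -3.23. Against the 42 control CD8 cells with Zbtb16 they were -3.85, -1.05 and -1.28.

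As a group the naive and recirculation list was also lower in DN. In IR, 8 of 13 genes were called lower in DN than in CD4, with a median log2 ratio of -1.89 against 0.01 over all genes, and 9 of 13 than in CD8, against 2.38% and 4.12% of all genes. In control, 5 of 13 were lower than in CD4 (median -0.86) and 9 of 13 than in CD8 (median -1.63), against 1.38% and 3.03% of all genes, and Satb1 was higher than in CD8, at 846 CPM in DN and 383 CPM in CD8. Between conditions 8 of 13 were higher in IR CD4 and 7 of 13 in IR CD8, with medians of 1.66 and 1.05, and 2 of the 10 measured were higher in IR DN, against the 7.63%, 7.87% and 8.36% of all genes given above. Fam169b and Gm8369 had log2 ratios on the same side of 0 as these medians in both CD4 and CD8, and BE692007 did not. Natural killer receptors were higher in DN, with 11 of 11 called against CD4 and 10 of 11 against CD8 in each condition. Of all genes 1.36% and 3.58% were higher in control, and 4.83% and 7.64% in IR. Of 7 T cell receptor and Cd3 genes none was called in control DN, with medians of 0.01 to CD4 and -0.28 to CD8. In IR the medians were -0.27 and -0.42, and 1 was called lower than in CD4, Cd247, at 122 CPM in DN and 295 CPM in CD4.

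The genes whose levels varied most alike over the 6 libraries were other ones for each member. Likeness of pattern, not of level, was taken as the Pearson correlation of log2(CPM + 1) among 4998 genes at 50 CPM or more in any library, a description over 6 libraries that share depth and software version by condition. Nearest to Fam169b were Tcf7 (r = 0.985), Cd55 (0.979), Dapl1 (0.977), Slamf6 (0.974) and Abtb2 (0.973). Nearest to Gm8369 were Ccr7 (r = 0.997), Gpr183 (0.997), Lat (0.989), Pym1 and Hspb11. Nearest to BE692007 were Aff3 (r = 0.996), Cnot7 (0.993), Lmbr1l, Dgka and Cabin1. A high r does not mean a change of like size, and the largest difference of centred log2 levels was 2.43 for Cnot7 and BE692007 and 2.04 for Tcf7 and Fam169b. Aff3 had control levels of 158 CPM in CD4, 274 CPM in CD8 and 61.1 CPM in DN, and IR levels of 125, 159 and 34.7 CPM. Between members r was 0.946 for Fam169b and Gm8369, 0.870 for Fam169b and BE692007, and 0.677 for the head-to-head pair. The control libraries, which chose the members by their low DN level, are among the 6. The r between members, and with other genes low in DN, is thus in part given by that choice.

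Single cells thinned to 500 retained UMIs were read for members seen together. In control CD4, 81 cells held both Fam169b and Gm8369, 2.55 times (2.03 to 3.17) the number given by the product of their shares, and in control CD8 119 cells did, 1.24 times (1.03 to 1.49). For Gm8369 and BE692007 the ratio was 1.74 (1.33 to 2.24) in control CD4 and 1.19 (0.98 to 1.43) in control CD8. For Fam169b and BE692007 it was 1.01 (0.66 to 1.47) in control CD4. In IR CD4 the ratios were 1.73, 1.53 and 1.57 in the same order of pairs, and in IR CD8 1.18, 1.21 and 0.89. The pairs that hold Gm8369 thus had ratios above 1 in these 4 libraries, and the difference between CD4 and CD8 was not tested. Such ratios were not particular to the members. Gm8369 with Slamf6 was at 2.59 in control CD4, 1.36 in control CD8, 1.52 in IR CD4 and 1.265 in IR CD8. Fam169b with Slamf6 was at 2.52 in control CD4. Gm8369 with Ms4a4b was at 1.10 and 1.06 in control CD4 and CD8, and at 1.21 and 0.99 in IR. In control DN no thinned cell held Fam169b with another member. The product gave only 0.27 with Gm8369 and 0.21 with BE692007, so the count of 0 decides nothing. Gm8369 and BE692007 were held together by 4 cells, where 1.22 were given by the product, a ratio of 3.28 (0.89 to 8.39). Without thinning, 260 control DN cells held 2 members and 16 held all 3.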

How the data were processed

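The 6 libraries of sorted kidney T cells (1 per subset and condition) were sequenced with the 10x Genomics 3' assay. The authors deposited raw UMI counts per gene and barcode, made with Cell Ranger 6.0.1 on mm10 per the submitters' processing notes; file headers named 5.0.1 for the control libraries. The methods name default settings, which in these versions count exonic reads by strand. No column of values was left out (0).

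Barcodes with at least 500 features and at most 20% mitochondrial UMIs were kept, without the top 5% by UMIs, which the study treated as doublets. Barcodes without a UMI of Cd3d, Cd3e, Cd3g, Trac, Trbc1 or Trbc2 were set aside, in place of clustering. Features in fewer than 5 barcodes and 102 mitochondrial, ribosomal and Malat1 features were removed. Counts were summed per library and divided by retained UMIs (CPM). A call needed 10 CPM in the higher library and a 2-fold difference; a count of 0 was set to 3. Since each group is 1 library, no test was run and no p-value is given; exact Poisson and Clopper-Pearson intervals cover counting error only. Scripts were tested on simulated data. Alternatives were TMM factors (edgeR 4.0.16), other filters, thinning to 500 UMIs, means over cells and centring on intronic length in 20 bins. Genes were matched to GENCODE M21 by identifier (99.8% of 32285). Python 3.11.15, scipy 1.17.1 and pandas 2.3.3 were used.

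The members and gene lists were chosen with earlier results of these data known. Named were the members, the next 2 genes in the ranking, the 5 genes most like each member, the 5 with the largest and smallest ratio in control CD4 and CD8 cells with a member, the 3 nearest genes on each side at 10 CPM or more, and genes of the lists and gates. Values of some genes that this rule names are not reported here.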

Additional observations from a re-analysis of the deposited data

Results flagged for a closer look

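Barcodes that passed the filters but held no UMI of the T cell receptor constant or Cd3 genes were outside the comparisons, and members were found in some of those of the IR libraries above the level in the control library of the same subset. In IR CD8, 130 such barcodes held 19 UMIs of Fam169b (136 CPM, against 23.9 CPM and 1 UMI in 22 control CD8 barcodes) and 35 UMIs of Gm8369 (249.8 CPM, against 47.8 CPM and 2 UMIs). In IR DN, 174 such barcodes held 11 UMIs of Gm8369 (60.7 CPM), and the 24 control DN barcodes held none. In CD4 the order was the other way, with Fam169b at 202 CPM in control and 49.7 CPM in IR, Gm8369 at 213 and 160 CPM, and BE692007 at 135 and 27.6 CPM. Over all 3 subsets Fam169b was at 120 CPM in control and 59.7 CPM in IR. These differences were not tested, the control counts in CD8 and DN are at or under 3, and the levels of Fam169b and Gm8369 in IR CD8 were below those in the kept cells, at 305 and 856 CPM.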

How the results depend on the processing

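All 3 members were lower in DN than in CD4 and CD8 in both conditions under each alternative tried, 14 for these counts, and no sign of a log2 ratio changed in any of the 306 repeats. The settings that require at least 2 T cell UMIs or leave out barcodes with B cell, myeloid or erythroid UMIs were chosen after seeing the data. Of all genes, 955, 29 and 18 were lower in control DN with no minimum CPM, 50 CPM and 4-fold, in place of 83, and 640, 57 and 40 in IR DN, in place of 142; with the removed features kept 75 were. In IR CD4 2 members were higher, and 1 with the removed features kept, with thinning, with means over cells and at 4-fold, Fam169b being the gene at the edge; all genes numbered 312 with the removed features kept, 4468 with no minimum, 380 at 50 CPM and 182 at 4-fold, in place of 689. In IR CD8 0 members were higher at 4-fold and 2 after centring, in place of 1, and of all genes 335 were with the removed features kept, 4843 with no minimum, 316 at 50 CPM and 300 at 4-fold, in place of 716. In IR DN 2 members were higher with the top 5% of barcodes kept, with no cell filters, with thinning and after centring and 0 at 4-fold, in place of 1; of all genes 4753 were with no minimum, 333 at 50 CPM and 345 at 4-fold, in place of 769. BE692007 was called lower in IR DN except at 50 CPM and 4-fold (0), and of all genes 1949, 557 and 52 were lower with no minimum, 50 CPM and 4-fold and 369 after centring, in place of 1045. With TMM the median of all genes in IR DN over CD8 shifted by -0.14, and with the removed features kept by 0.33. No paired analysis was run. The labels pair no replicates and the results come from no test. A fit of subset with condition as a block over the 6 libraries was not run either. The IR DN values of Fam169b and BE692007 rest on 48 and 37 UMIs.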

Other observations

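Control DN cells with a Gm8369 UMI, 1030 of 8889, had higher levels of Cxcl10 (136 against 15.6 CPM, log2 ratio 3.12), Iigp1 (81.9 against 23.6 CPM), Ifit3 (67.3 against 22.5 CPM), Aff3 (117 against 52.8 CPM) and Gm2245 (54.8 against 25.5 CPM) than those without, the 5 largest ratios at 50 CPM or more. Cxcl10 and Iigp1 were also among the highest ratios in the 808 control DN cells with BE692007 (1.41 and 1.28), where Gm8369 itself led (1.79). In the 251 control DN cells with Fam169b the largest ratios were those of Hdac9 (3.20), Cmah (1.90) and Aff3 (1.67), and Gzma was lower (8.88 against 77.6 CPM). Read the other way round, Fam169b was not lower in the 362 control DN cells with a Gzma UMI. It was at 7.21 CPM there against 5.90 CPM in the others, a log2 ratio of 0.29 (-0.46 to 0.96). These genes were named after their values were seen. In the control DN cells with an Isg15 UMI, Gm8369 was at 30.1 CPM against 25.7 CPM in the others.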
